A study of Homo sapiens with 16 samples.

Results

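The genes described here encode subunits of histone-modifying complexes listed as partners of the cofactor HCF-1, in 5 groups. They are 16 genes of the SET1/MLL methyltransferase complexes, 12 of the SIN3-HDAC deacetylase complex, 5 of the BAP1-ASXL deubiquitinase complex, 3 genes of histone demethylases and a demethylase partner, and 6 of the NSL acetyltransferase complex. The 42 genes were chosen by name, as subunits of these listed complexes, out of 56969 genes in the table. Whether HCF-1 binds each complex, and each form of SET1/MLL, was not measured here. All 42 were among the 16081 genes tested, those with a mean of at least 10 normalized counts over the libraries. Cultures of HepG2, a long-established line of human liver cancer cells, were compared in 2 groups: 8 transfected with siRNA against HCF-1 and 8 transfected with a control siRNA. All cultures received 2 rounds of transfection 2 days apart, and RNA was taken 2 days after the second. The labels call the 8 cultures biological replicates without saying how they were kept apart, so the p-values measure the spread between these samples.

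HCF-1, encoded by HCFC1, has no DNA-binding domain of its own and sits at promoters by way of transcription factors such as THAP11, ZNF143, GABPA, YY1 and the E2F proteins. Enzymes of opposite kinds bind it there: complexes of the SET1/MLL family methylate H3K4, a mark of active promoters and enhancers, and SIN3-HDAC removes acetyl groups from histones. BAP1 removes ubiquitin from histone H2A, the demethylases remove methyl groups from histone lysines, and NSL carries the acetyltransferase KAT8.

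Among the 42 genes, 12 rose and 1 fell after HCF-1 siRNA, while 29 did not pass the test. The test was limma with Benjamini-Hochberg adjustment over all genes tested and a threshold of 0.05. The share called was 31% of the 42 genes and 36.6% of all genes tested. By direction, 28.6% of the 42 were higher and 2.38% lower, and 18.2% of all genes tested were higher and 18.3% lower. The 42 genes were better expressed, with a median of means of 1880 normalized counts against 479 over all genes tested. Among the 9693 genes with at least the mean of the lowest of the 42, 20.9% were higher and 23.3% lower. The median log2 fold change was 0.14 over the 42 genes and 0.01 over all genes tested, and 32 of the 42 values were positive. The changes were small, from -0.25 for DPY30 to 0.64 for ARID4B. Only KDM6A and ARID4B passed the test with at least a 1.5-fold increase, 4.76% of the 42 genes, and 8.9% of all genes tested changed that far, 5.65% higher and 3.25% lower. The values of the groups did not overlap for KMT2D and KAT8, again 4.76%, and for 9.82% of all genes tested, 4.59% higher and 5.23% lower. These shares describe the genes, and nothing was tested about them as a list. In bulk RNA, fewer cells of a type and less RNA per cell cannot be told apart.

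**Figure D1:**
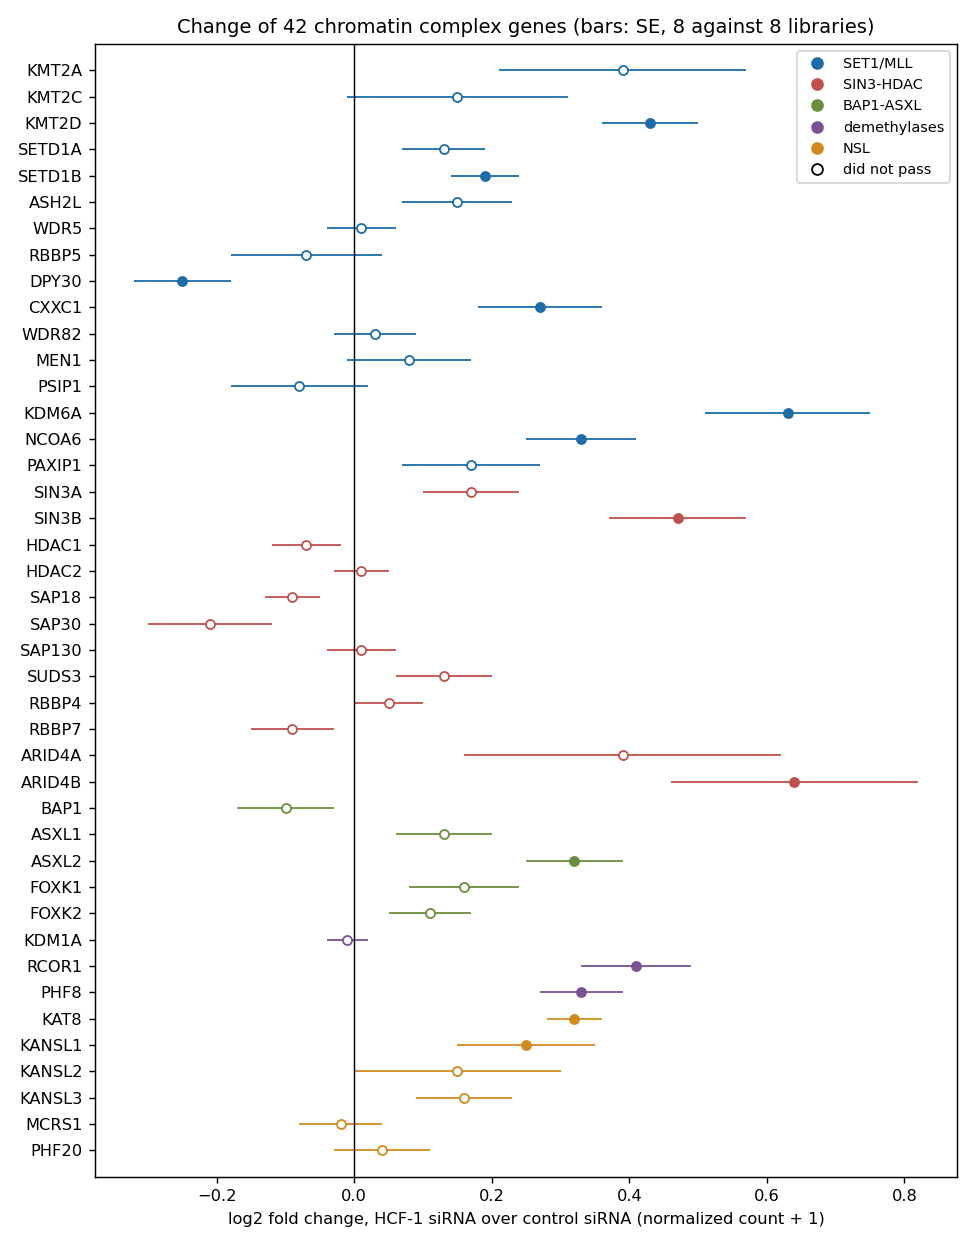
Log2 fold change (HCF-1 siRNA over control siRNA) and standard error for each of the 42 genes, grouped by complex, on the log2(normalized count + 1) scale (8 libraries of each group). The values run from -0.25 for DPY30 to 0.64 for ARID4B, and 32 of the 42 lie above 0.

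The targeted gene HCFC1 averaged 3682 ± 340 normalized counts in HCF-1 siRNA libraries and 5631 ± 671 in control libraries (SD, n = 8 each), or 65.4% of the control mean. Recovered reads per library came to 25098840 to 43186890 in HCF-1 siRNA libraries and 21030830 to 32820459 in control libraries (exact permutation test, two-sided, p = 0.0375). With reads thinned to the smallest library, 12 of the 13 calls among the 42 genes remained. The summed level of 10 hepatocyte markers of HepG2 was 867297 to 1036112 normalized counts in HCF-1 siRNA libraries and 731010 to 796693 in control libraries. Of the 10 markers, 7 were higher, among them TTR (0.63 ± 0.06), AFP (0.58 ± 0.07) and ALB (0.52 ± 0.06 on the log2 scale). The 1 lower marker was FGB (-0.50 ± 0.05, limma adjusted p = 2.24e-06). The sum of 3 blood markers was 1263 to 1431 in HCF-1 siRNA libraries and 1214 to 1495 in control libraries, with PTPRC at a mean below 1, and LAPTM5 fell (-0.32 ± 0.08, limma adjusted p = 0.00694). Most of that sum was CD68, with means of 1168 in HCF-1 siRNA libraries and 1189 in control libraries. CD68 did not pass, and 81.73% of its exon length is shared with another annotated gene on the same strand. The sum of 3 endothelial markers was 265 to 420.8 in HCF-1 siRNA libraries and 396.7 to 536.5 in control libraries, and ESAM fell (-0.89 ± 0.13, adjusted p = 4.39e-05). The other endothelial markers, CDH5 (0.30 ± 0.14) and VWF (0.20 ± 0.33), were positive and did not pass. The sum of 4 mesenchymal markers was 2166 to 2493 in HCF-1 siRNA libraries and 2075 to 2879 in control libraries, and COL1A1 fell (-0.56 ± 0.15, adjusted p = 0.00718). Most of the mesenchymal sum was ACTA2, with means of 1814 in HCF-1 siRNA libraries and 1782 in control libraries, which did not pass. COL1A2 and DCN were too low to be tested. The part of depth beyond the thinned reads, and of these markers, in the results below was not tested.

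Promoters of 34 of the 42 genes were in the RefSeq promoter table of build GRCh38.p14, as 51 windows that run from 250 bases before to 50 bases after a start site. Short letters of the factors that bring HCF-1 to DNA were searched on both strands. ACTACA, the first letters of the element of THAP11 and ZNF143, was found for 6 of the 34 genes (17.6%) and for 10.3% of the 27305 genes in the table. A longer form of the element, ACTACA and TTCCCA with any 1 base between them, was looked for after the sequences were seen. It was found for KANSL1, SAP130 and SAP30, 8.82% of the 34 genes and 0.817% of all genes. CCGGAAG, letters bound by GABPA and other ETS factors, was found for 17.6% of the 34 genes and 12.2% of all. AAGATGGC, letters of YY1, was found for ASXL1, CXXC1, PHF8 and RBBP7, 11.8% of the 34 and 3.52% of all. GGCGGGAA, letters of E2F sites, was found for SIN3A and WDR82, 5.88% of the 34 and 3.79% of all. Of 9 genes in the table that passed the test, 2 held ACTACA, 1 CCGGAAG and 2 AAGATGGC. Genes that did not pass held them too: MEN1, SAP130, SAP30 and WDR82 held ACTACA, and ASXL1 and RBBP7 held AAGATGGC. CCGGAAG was in ASXL1, KANSL3, RBBP7, SUDS3 and WDR5, which did not pass. SETD1B, DPY30, NCOA6 and KAT8 passed but have no window in the table. A gene with more windows has more places for a match, so shares by window were taken as well. ACTACA was in 11.8% of the 51 windows and 8.46% of all 35116, and CCGGAAG in 13.7% and 10.3%. AAGATGGC was in 9.8% and 2.89%, GGCGGGAA in 3.92% and 3.16%, and the longer element in 5.88% and 0.669%. None of these differences was tested, and the background was all genes in the promoter table. A match is a run of letters in a window and not a measured binding site. The windows printed below are all of genes that passed the test.

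The windows of PHF8 and CXXC1 are shown for the YY1 letters, those of ASXL2 and KANSL1 for the THAP11 and ZNF143 letters, and that of KMT2D as the window of a gene whose groups did not overlap and in which none of the letters occurs. Each is 300 bases of the minus strand, 5′ to 3′, with the letters found in capitals. They lie at chrX:54044424-54044723, chr18:50287643-50287942, chr2:25878438-25878737, chr17:46194001-46194300 and chr12:49060745-49061044 of GRCh38.p14.
PHF8: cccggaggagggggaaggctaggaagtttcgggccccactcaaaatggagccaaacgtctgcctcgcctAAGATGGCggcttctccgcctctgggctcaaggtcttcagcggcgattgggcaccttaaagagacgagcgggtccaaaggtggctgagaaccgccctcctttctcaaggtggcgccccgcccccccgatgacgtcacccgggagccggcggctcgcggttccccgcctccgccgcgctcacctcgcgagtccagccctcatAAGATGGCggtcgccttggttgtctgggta
CXXC1: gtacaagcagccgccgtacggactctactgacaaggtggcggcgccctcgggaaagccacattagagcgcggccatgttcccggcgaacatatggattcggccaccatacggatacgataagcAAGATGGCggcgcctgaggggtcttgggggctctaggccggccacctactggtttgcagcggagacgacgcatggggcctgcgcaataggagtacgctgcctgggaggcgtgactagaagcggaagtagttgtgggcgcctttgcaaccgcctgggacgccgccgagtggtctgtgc
ASXL2: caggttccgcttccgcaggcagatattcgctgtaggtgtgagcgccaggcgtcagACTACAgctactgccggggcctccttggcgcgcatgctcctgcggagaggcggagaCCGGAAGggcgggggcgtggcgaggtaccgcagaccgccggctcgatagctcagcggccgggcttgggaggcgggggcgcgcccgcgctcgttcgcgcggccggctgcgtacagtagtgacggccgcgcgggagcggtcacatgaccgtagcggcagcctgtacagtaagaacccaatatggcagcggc
KANSL1: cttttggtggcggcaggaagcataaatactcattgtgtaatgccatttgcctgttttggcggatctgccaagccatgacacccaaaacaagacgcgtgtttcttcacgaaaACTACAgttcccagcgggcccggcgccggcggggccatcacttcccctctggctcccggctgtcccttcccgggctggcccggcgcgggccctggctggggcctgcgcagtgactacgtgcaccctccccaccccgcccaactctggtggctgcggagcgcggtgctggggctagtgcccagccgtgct
KMT2D: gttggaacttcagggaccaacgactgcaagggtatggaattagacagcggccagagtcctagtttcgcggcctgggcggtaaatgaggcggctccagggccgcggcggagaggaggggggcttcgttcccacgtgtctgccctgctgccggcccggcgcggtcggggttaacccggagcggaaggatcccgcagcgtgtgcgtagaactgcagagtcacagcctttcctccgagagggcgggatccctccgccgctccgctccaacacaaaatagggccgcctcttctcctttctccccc
The PHF8 window shown holds a pair of runs of the YY1 letters, and the ASXL2 window shown holds the ETS letters as its second run. PHF8, ASXL2 and KANSL1 have other windows too, and another of PHF8 (chrX:54045087-54045386) also holds the YY1 letters. Of the windows shown, only that of CXXC1 had bases after the start site that matched an annotated transcript of its gene. In KANSL1 the capitals are followed by the rest of the longer element.

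The SET1/MLL genes had 5 higher (31.2%), 1 lower (6.25%) and 10 not passed, with a median log2 fold change of 0.15. Over all genes tested, 18.2% were higher and 18.3% lower. The 5 methyltransferase genes were all positive, between 0.13 and 0.43, with 2 called, and the 3 subunits particular to the MLL3 and MLL4 complexes had a median of 0.33 with 2 called. The 4 core subunits that every SET1/MLL complex shares had a median of -0.03 with none higher and 1 lower. Differences between the roles, and between the complexes, were not tested.

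KMT2D (ENSG00000167548), also called MLL4, places the single methyl mark of H3K4 at enhancers. Its lowest, median and highest values were 3203, 3856 and 4012 normalized counts in HCF-1 siRNA libraries, and 2304, 2697 and 3163 in control libraries. Every HCF-1 siRNA library lay above every control library. The mean was 3671 ± 336 in HCF-1 siRNA libraries and 2737 ± 297 in control libraries (SD, n = 8 each), a log2 fold change of 0.43 ± 0.07 (SE; limma adjusted p = 1.33e-04).

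SETD1B (ENSG00000139718), a catalytic subunit of the SET1 complexes, which place most trimethyl H3K4, had 1052, 1140 and 1253 normalized counts (lowest, median, highest) in HCF-1 siRNA libraries and 937.3, 1003 and 1058 in control libraries. Its groups met only at their edges, and all 8 HCF-1 siRNA libraries were above the control median. The log2 fold change was 0.19 ± 0.05 (limma adjusted p = 0.00459), and the call was lost when each library was centred within bins of exon length (adjusted p there 0.0579). Its paralog SETD1A averaged 2438 ± 150 in HCF-1 siRNA libraries and 2237 ± 224 in control libraries, a log2 fold change of 0.13 ± 0.06 (adjusted p = 0.112), which passed with centring by GC content (adjusted p = 0.00859).

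KMT2A, or MLL1, which is cut by the protease taspase and acts at developmental genes, varied far more between cultures. Its values were 1601, 2312 and 3325 normalized counts in HCF-1 siRNA libraries and 1017, 2053 and 2494 in control libraries, with wide overlap. In the annotation 17.89% of the exon length of KMT2A is shared with AP001267.5 on the same strand, and the part of this overlap in the spread was not tested. The log2 fold change of KMT2A, 0.39 ± 0.18, was nearly as large as that of KMT2D and did not pass (limma adjusted p = 0.0939), though it did without HCF-1 siRNA replicate 5 (adjusted p = 0.035). KMT2C, the paralog of KMT2D, had 604.3, 1152 and 1396 in HCF-1 siRNA libraries and 627.8, 954.4 and 1259 in control libraries (0.15 ± 0.16, adjusted p = 0.492). KMT2C has near-identical duplicated copies in the genome that could take part of its reads, so its value is uncertain. KMT2B, the paralog of KMT2A that is not among the 42 genes, was 1826 ± 140 in HCF-1 siRNA libraries and 1290 ± 72.8 in control libraries without overlap (0.50 ± 0.05, adjusted p = 1.36e-06).

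DPY30 (ENSG00000162961), a small core subunit that stimulates the methyltransferases, was the only one of the 42 genes to pass as lower in the main test. It had 794.1, 941.4 and 1036 normalized counts in HCF-1 siRNA libraries and 905.8, 1114 and 1168 in control libraries. The groups overlapped, and no HCF-1 siRNA library reached the control median. The log2 fold change was -0.25 ± 0.07 (limma adjusted p = 0.00703), and centring by exon length ended the call (adjusted p = 0.0826). In the annotation 50.46% of its exon length is shared with MEMO1 on the same strand, so reads of the pair may be divided or dropped. MEMO1 itself had 1607 ± 154 in HCF-1 siRNA libraries and 1678 ± 142 in control libraries (adjusted p = 0.465).

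The other core subunits did not pass. WDR5, the propeller protein that holds the methyltransferase, averaged 2281 ± 175 normalized counts in HCF-1 siRNA libraries and 2259 ± 140 in control libraries, with an interval of 2 SE around its log2 fold change from -0.09 to 0.11. ASH2L, which binds DPY30, averaged 2086 ± 175 in HCF-1 siRNA libraries and 1897 ± 275 in control libraries (0.15 ± 0.08, limma adjusted p = 0.182). RBBP5, which joins ASH2L to the enzyme, averaged 841.4 ± 147 in HCF-1 siRNA libraries and 876.3 ± 126 in control libraries (-0.07 ± 0.11, adjusted p = 0.678).

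CXXC1 (ENSG00000154832), which brings the SET1 complexes to unmethylated CpG islands, had 863, 926.8 and 1041 normalized counts in HCF-1 siRNA libraries and 538.4, 818.6 and 938.6 in control libraries. Every HCF-1 siRNA library was above the control median, and the ranges overlapped. The log2 fold change was 0.27 ± 0.09 (limma adjusted p = 0.0281). The call was lost without HCF-1 siRNA replicate 7, without control siRNA replicate 7, with no filter on low values and with thinned reads, and over all alternatives the adjusted p ran from 0.00758 to 0.062. WDR82, which ties the SET1 complexes to RNA polymerase II, averaged 4579 ± 369 in HCF-1 siRNA libraries and 4492 ± 398 in control libraries (0.03 ± 0.06).

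KDM6A (ENSG00000147050), or UTX, removes methyl groups from H3K27 within the MLL3 and MLL4 complexes. It had 671.8, 876.7 and 1326 normalized counts in HCF-1 siRNA libraries and 456.5, 581.4 and 673.2 in control libraries. The groups overlapped by the narrowest margin, with the lowest HCF-1 siRNA library just under the highest control library. Means were 916.2 ± 203 in HCF-1 siRNA libraries and 583.3 ± 80.9 in control libraries, a log2 fold change of 0.63 ± 0.12 (limma adjusted p = 5.25e-04). NCOA6 (ENSG00000198646), a coactivator of nuclear receptors in the same complexes, had 2926, 3336 and 4038 in HCF-1 siRNA libraries and 2264, 2721 and 3082 in control libraries (0.33 ± 0.08, adjusted p = 0.00292). All 8 HCF-1 siRNA libraries exceeded the control median for both genes. PAXIP1, an adaptor with BRCT domains, averaged 1044 ± 164 in HCF-1 siRNA libraries and 922.6 ± 108 in control libraries (0.17 ± 0.10, adjusted p = 0.172). Of the subunits particular to the MLL1 and MLL2 complexes, menin (MEN1) had a log2 fold change of 0.08 ± 0.09 and its chromatin tether PSIP1 one of -0.08 ± 0.10, and neither passed.

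**Figure D2:**
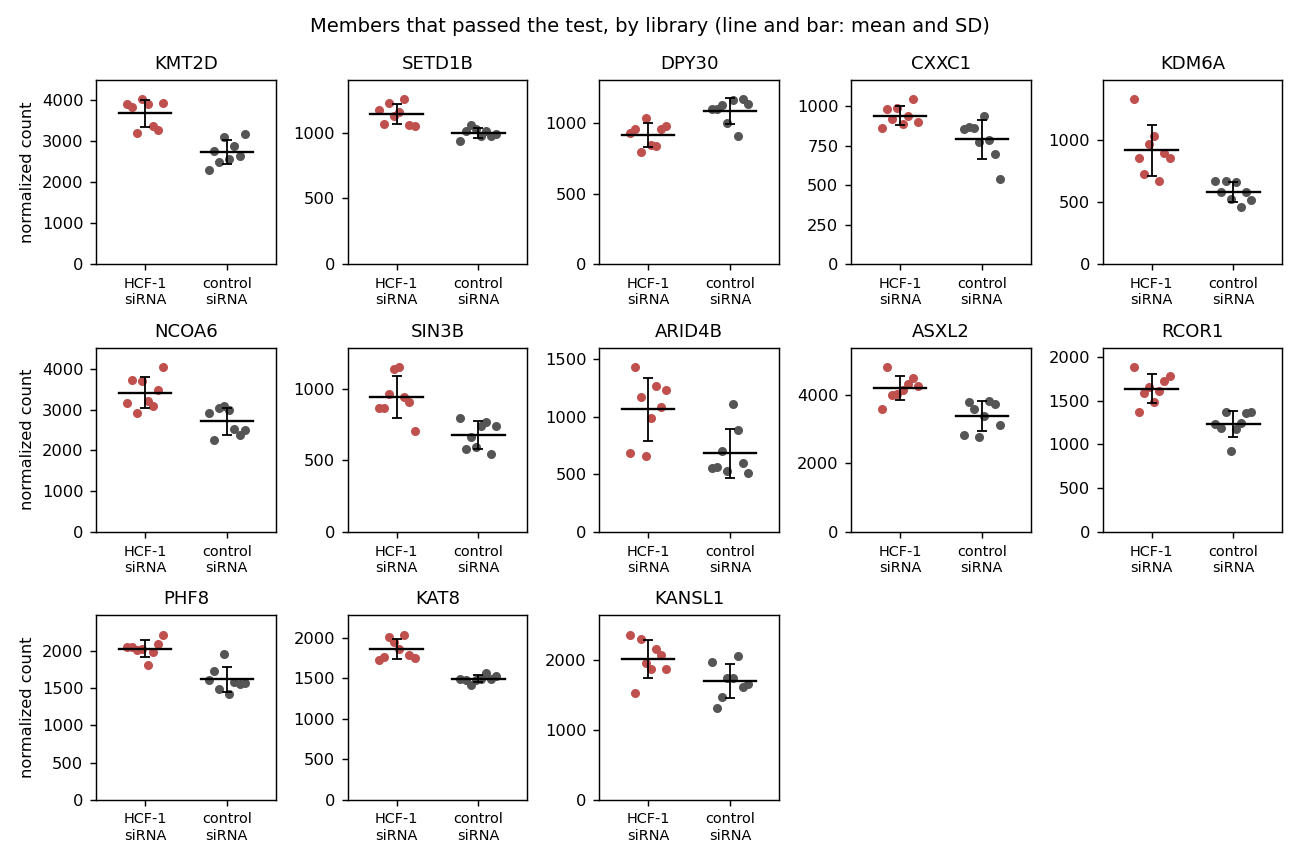
Normalized counts of the 13 genes that passed the test in each HCF-1 siRNA library (left in each panel) and each control siRNA library (right), with the mean and SD of 8 libraries. Every KMT2D and KAT8 value in HCF-1 siRNA libraries lies above every control value, and DPY30 is the one gene that was lower.

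The SIN3-HDAC genes had 2 of 12 higher (16.7%, near the 18.2% of all genes tested), none lower and a median log2 fold change of 0.03. SIN3B and ARID4B rose, and the histone deacetylases themselves stayed within a narrow interval. SIN3B (ENSG00000127511), one of the paired scaffold proteins, had 706.3, 925.2 and 1151 normalized counts in HCF-1 siRNA libraries and 541.9, 700 and 795 in control libraries. The ranges overlapped, and every HCF-1 siRNA library was above the control median (0.47 ± 0.10, limma adjusted p = 0.00167). Its paralog SIN3A had 2124, 2468 and 2813 in HCF-1 siRNA libraries and 1941, 2169 and 2818 in control libraries (0.17 ± 0.07, adjusted p = 0.0894), and the highest value of all was in a control library.

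ARID4B (ENSG00000054267), a DNA-binding subunit that also binds the retinoblastoma protein, had 657.7, 1130 and 1431 normalized counts in HCF-1 siRNA libraries and 514.6, 583.1 and 1114 in control libraries. Its groups overlapped widely, since 1 control library nearly reached the HCF-1 siRNA median. The log2 fold change of 0.64 ± 0.18 was the highest of the 42 (limma adjusted p = 0.0111). ARID4B shares 14.48% of its exon length with RBM34 on the same strand, and RBM34 had a log2 fold change of -0.07 ± 0.07. Its paralog ARID4A had 363.9, 495.1 and 941 in HCF-1 siRNA libraries and 239.6, 368.3 and 777.6 in control libraries (0.39 ± 0.23, adjusted p = 0.207).

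HDAC1, one of the paired catalytic deacetylases, averaged 2928 ± 131 normalized counts in HCF-1 siRNA libraries and 3080 ± 230 in control libraries, with an interval of 2 SE from -0.16 to 0.02. HDAC2 averaged 3689 ± 218 in HCF-1 siRNA libraries and 3659 ± 177 in control libraries, with an interval from -0.07 to 0.09. The interval of HDAC2 holds for the values as deposited, since centring by exon length turned its direction (-0.126, limma adjusted p = 0.0101). The histone-binding proteins RBBP4 (0.05 ± 0.05) and RBBP7 (-0.09 ± 0.06) did not pass, nor did SAP18 (-0.09 ± 0.04), SAP30 (-0.21 ± 0.09), SAP130 (0.01 ± 0.05) and SUDS3 (0.13 ± 0.07), further subunits of the complex. SAP30 had the lowest mean of the 42 genes, 237.3 ± 38.8 normalized counts in HCF-1 siRNA libraries and 273.4 ± 20.4 in control libraries. It passed as lower without HCF-1 siRNA replicate 7 (limma adjusted p = 0.00798) and with total-count scaling (0.0436). SAP18 passed as lower with centring by GC content (0.0158), with total-count scaling (0.0273) and without control siRNA replicate 3 (0.0391). SUDS3 passed as higher without HCF-1 siRNA replicate 6 (0.0483).

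In the BAP1-ASXL complex, 1 of 5 genes rose (20%, near the 18.2% of all genes tested) and the median log2 fold change was 0.13. ASXL2 (ENSG00000143970), which activates BAP1, had 3581, 4196 and 4803 normalized counts in HCF-1 siRNA libraries and 2782, 3486 and 3824 in control libraries. The ranges overlapped, with all 8 HCF-1 siRNA libraries above the control median (0.32 ± 0.07, limma adjusted p = 0.0029), and centring by exon length ended the call (adjusted p = 0.0767). BAP1, the deubiquitinase, had 2355, 2588 and 3287 in HCF-1 siRNA libraries and 2439, 2971 and 3147 in control libraries (-0.10 ± 0.07, adjusted p = 0.305), and its ranges overlapped widely. ASXL1 averaged 6522 ± 544 in HCF-1 siRNA libraries and 5978 ± 660 in control libraries (0.13 ± 0.07, adjusted p = 0.148). The forkhead factors FOXK1 (0.16 ± 0.08) and FOXK2 (0.11 ± 0.06), which bring BAP1 to DNA, did not pass.

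Of the 3 demethylase genes, 2 rose (66.7%, beside 18.2% of all genes tested), with a median log2 fold change of 0.33. A share of so few genes is coarse. RCOR1 (ENSG00000089902), or CoREST, which lets KDM1A act on nucleosomes, had 1369, 1627 and 1880 normalized counts in HCF-1 siRNA libraries and 921, 1237 and 1374 in control libraries. The ranges overlapped narrowly, with the lowest HCF-1 siRNA library just under the highest control library (0.41 ± 0.08, limma adjusted p = 7.48e-04). PHF8 (ENSG00000172943), which demethylates H3K9 and H4K20, had 1805, 2040 and 2212 in HCF-1 siRNA libraries and 1427, 1577 and 1958 in control libraries (0.33 ± 0.06, adjusted p = 2.56e-04). Its ranges overlapped, and every HCF-1 siRNA library was above the control median. KDM1A, the enzyme that RCOR1 serves, averaged 6427 ± 327 in HCF-1 siRNA libraries and 6447 ± 225 in control libraries. The interval of 2 SE around its log2 fold change, -0.07 to 0.06, was among the narrowest, so that the message of the partner rose while a change of KDM1A beyond those bounds was not seen.

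The NSL genes had 2 of 6 higher (33.3%, beside 18.2% of all genes tested), none lower and a median log2 fold change of 0.15. KAT8 (ENSG00000103510), or MOF, which acetylates histone H4, had 1720, 1823 and 2030 normalized counts in HCF-1 siRNA libraries and 1413, 1486 and 1564 in control libraries. The ranges did not overlap, and the log2 fold change of 0.32 ± 0.04 had the smallest adjusted p of the 42 genes (limma, 2.24e-05). KANSL1 (ENSG00000120071), the scaffold of the complex, had 1521, 2010 and 2354 in HCF-1 siRNA libraries and 1318, 1691 and 2053 in control libraries (0.25 ± 0.10, adjusted p = 0.0489), with overlapping ranges. That call lay at the threshold and was lost in 19 of 29 alternatives, with adjusted p from 0.0113 to 0.437, and partly duplicated copies of KANSL1 in the genome make its reads uncertain. KANSL2 (0.15 ± 0.15), KANSL3 (0.16 ± 0.07), MCRS1 (-0.02 ± 0.06) and PHF20 (0.04 ± 0.07), the last a reader of methylated lysines, did not pass.

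Within-library ratios of paralogs, which do not depend on how a library is scaled, were compared for 8 pairs with exact permutation tests, two-sided, and Benjamini-Hochberg adjustment over the pairs. None passed. SIN3A over SIN3B had a mean log2 ratio of 1.42 ± 0.27 in HCF-1 siRNA libraries and 1.72 ± 0.24 in control libraries (SD, n = 8 each), a difference of -0.31 with an interval from -0.58 to -0.03 (exact p = 0.0317, adjusted 0.13). RBBP4 over RBBP7 differed by 0.15 (exact p = 0.0406, adjusted 0.13), and ASXL1 over ASXL2 by -0.19 (exact p = 0.0486, adjusted 0.13). KMT2C over KMT2D was -1.80 ± 0.32 in HCF-1 siRNA libraries and -1.52 ± 0.35 in control libraries, a difference of -0.28 with an interval from -0.64 to 0.08 (exact p = 0.12, adjusted 0.239). The differences of SETD1A over SETD1B (-0.06, interval -0.22 to 0.10), HDAC1 over HDAC2 (-0.08, -0.23 to 0.06), ARID4A over ARID4B (-0.26, -0.84 to 0.32) and FOXK1 over FOXK2 (0.05, -0.15 to 0.25) had adjusted p of 0.383 to 0.571. So KMT2D passed and KMT2C did not, yet their responses were not shown to differ, and the same holds for SETD1B and SETD1A and for ARID4B and ARID4A.

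**Figure D3:**
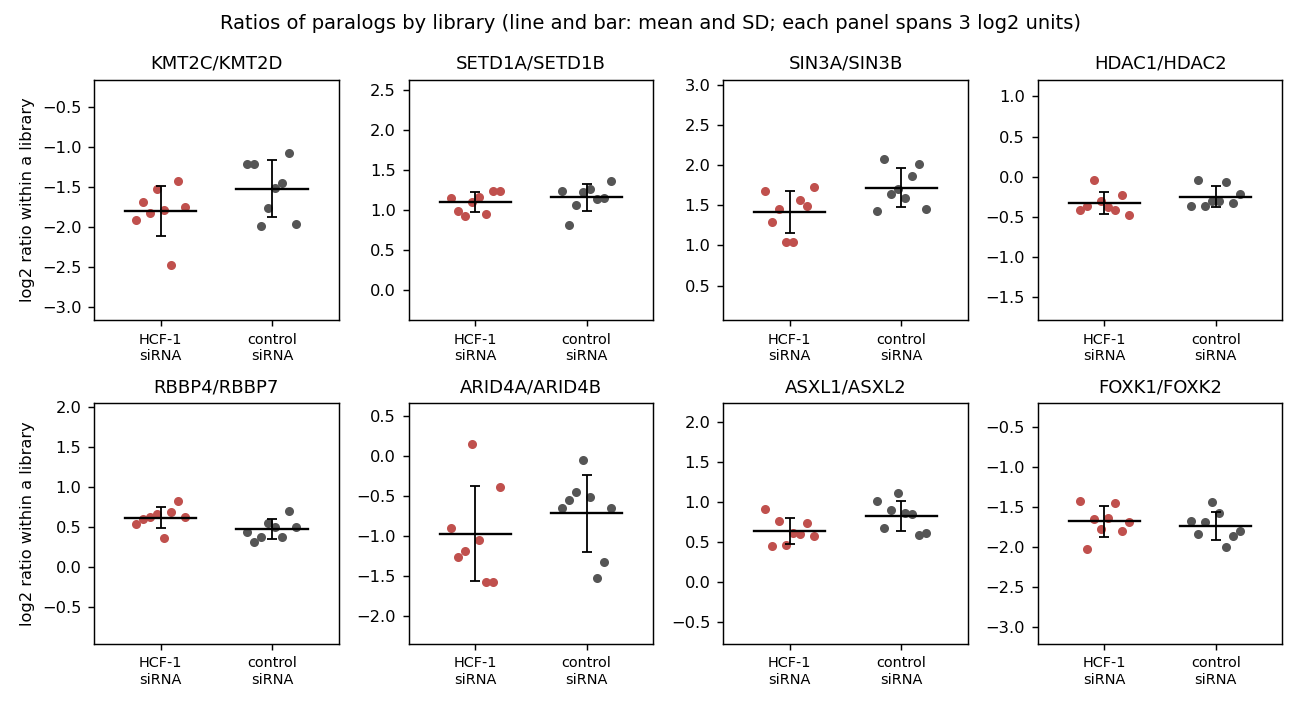
Log2 ratio of the paralogs within each library for 8 pairs, HCF-1 siRNA libraries left of control siRNA libraries, with group means. The ranges of the groups overlap in every pair, and the largest shift is that of SIN3A over SIN3B (-0.31).

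Levels can be compared between genes only per length of transcript, here normalized counts per 1000 bases of the transcript annotated as principal for 30 of the 42 genes. For the other 12, KDM1A, KMT2A, SETD1B and ARID4A among them, no transcript carries that tag and the longest was used. KDM1A was the highest of the 42, at 2101 ± 107 per 1000 bases in HCF-1 siRNA libraries and 2107 ± 73.7 in control libraries. In HCF-1 siRNA libraries RBBP7, HDAC1, DPY30, SAP18, WDR82 and KAT8 came next, while in control libraries DPY30 (1536) lay above HDAC1 (1450), and MCRS1 (991) and FOXK2 (883) lay above KAT8. KAT8 stood at 1006 ± 66.8 in HCF-1 siRNA libraries and 807 ± 23.3 in control libraries. Among the methyltransferases SETD1A was the highest, at 378 ± 23.3 in HCF-1 siRNA libraries and 347 ± 34.7 in control libraries. KMT2D stood at 189 ± 17.3 in HCF-1 siRNA libraries and 141 ± 15.3 in control libraries, and KMT2A at 152 ± 36.5 in HCF-1 siRNA libraries and 117 ± 28.9 in control libraries. KMT2C was the lowest, at 64 ± 14.2 in HCF-1 siRNA libraries and 57.5 ± 12.1 in control libraries. ARID4A was the next lowest, at 93.6 ± 33.8 in HCF-1 siRNA libraries and 72.4 ± 29 in control libraries. The mean of KMT2C lay within the wide SD of ARID4A in both groups. The neighbours KMT2A, KMT2D and SETD1B overlapped in their SDs in control libraries.

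**Figure D4:**
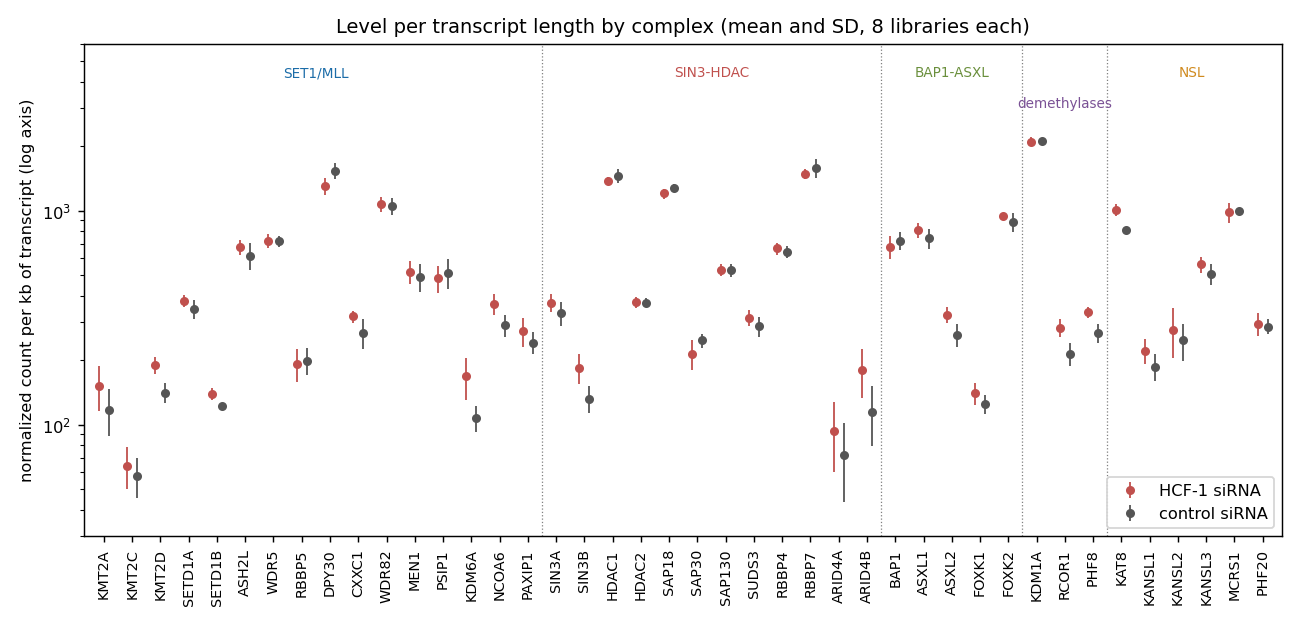
Normalized counts per 1000 bases of the principal or, for 12 genes, longest transcript (log axis) for the 42 genes, HCF-1 siRNA beside control siRNA, as mean and SD of 8 libraries. KDM1A is the highest (2101 in HCF-1 siRNA libraries) and KMT2C the lowest (64).

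Long genes were common among the 42, and fold change moved with length. Their median annotated exon length was 7265 bases, against 4495 bases over all genes with a length, and 9 of the 42 were in the longest of 20 length bins. In that bin 29.6% of all genes tested were higher and 6.31% lower, whereas in the second-shortest bin 10.3% were higher and 22.4% lower. The shortest bin did not follow this order, with 12.5% higher and 9.25% lower, and held none of the 42. Spearman's rho between length and log2 fold change was 0.56 across the 42 genes and 0.18 across 15541 genes, all measured in the same 16 libraries, so genes are not independent points. With each library centred within length bins, 10 of the 42 were called, 9 of them shared with the 13, and the median log2 fold change of the 42 was 0.066. Of the 42 genes, 29 lay above the median of their own bin. The part of length in the individual changes was not tested beyond this.

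**Figure D5:**
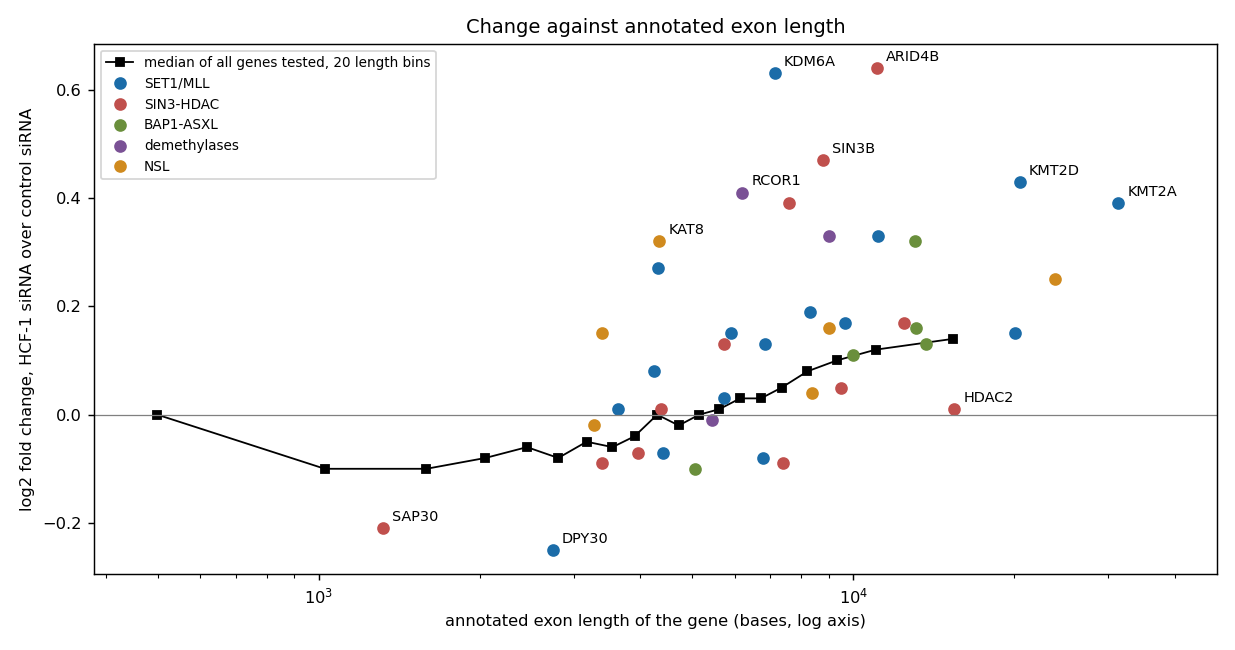
Log2 fold change of HCF-1 siRNA over control siRNA against annotated exon length (log axis) for the 42 genes, coloured by complex, with the median of all genes tested in 20 length bins (black). The bin medians climb to 0.14 in the longest bin, and 29 of the 42 genes lie above the median of their bin.

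The genes differed in how much they varied between cultures of the same group. The within-group SD on the log2 scale had a median of 0.150 over the 42 genes, from 0.062 for KDM1A to 0.507 for ARID4A, and a median of 0.144 over the 9693 genes with at least the mean of the lowest of the 42. It was above 0.3 for KMT2A, KMT2C, ARID4A, ARID4B and KANSL2. The coefficient of variation of KMT2A was 23.9% in HCF-1 siRNA libraries and 24.7% in control libraries. For ARID4A it was 36.1% in HCF-1 siRNA libraries and 40.1% in control libraries. The 42 genes had 180 to 10202 recovered reads per library.

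Other subunits of the same complexes, 27 tested of 28 listed, had 10 higher (37%) and 6 lower (22.2%) with a median log2 fold change of 0.05, beside 18.2% higher and 18.3% lower over all genes tested. HCFC1 itself, the siRNA target, is 1 of the 6. OGT, which glycosylates and cleaves HCF-1, rose without overlap, at 2453 ± 247 normalized counts in HCF-1 siRNA libraries and 1499 ± 198 in control libraries (0.71 ± 0.08, limma adjusted p = 3.64e-06). ZMYM2, a zinc finger partner of the KDM1A complex, rose by 0.66 ± 0.16 (adjusted p = 0.00293). BRMS1, a SIN3-HDAC subunit, was 805.5 ± 87.4 in HCF-1 siRNA libraries and 1179 ± 81.6 in control libraries (-0.55 ± 0.07, adjusted p = 1.04e-05). KDM1B, the paralog of KDM1A, was 631.9 ± 32.1 in HCF-1 siRNA libraries and 853.4 ± 73.1 in control libraries (-0.43 ± 0.06, adjusted p = 1.58e-05). Both fell without overlap and were picked out after their values were seen.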

How the data were processed

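The labels describe stranded mRNA libraries. The deposited table holds normalized counts (a signal, scaled per library by the authors) for each Ensembl gene. The submitters' processing notes name hg19, DESeq2 1.16.1, featureCounts 1.4.4, STAR 2.4.1d and cutadapt 1.4.2. Annotation release, strand setting and filters were not given in the sources used here. Within each library the values were whole multiples of 1 step (100% of them, within 0.001 read), so reads could be recovered. On those reads edgeR 4.0.16 called 5853 genes and DESeq2 1.42.0 called 6258. A digit is missing from 1 column name, which still matched 1 library only. Libraries of a group differed by more than sampling noise in every pair.

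Values were compared with limma 3.58.1 in R 4.3.3 (trend and robust options) on log2(normalized count + 1), which understates the change of low genes, keeping genes whose mean was at least 10. Group means of read depth and of paralog ratios were compared by exact permutation in Python 3.11.15. Spearman's rho came from SciPy 1.17.1. Depth ranged from 21030830 to 43186890 recovered reads. The limma step was tested on simulated data. Exon length, GC content and overlaps came from GENCODE release 29, which is on another build, and 96.6% of genes tested had a match by identifier. Promoter sequences came from RefSeq, GRCh38.p14. KMT2B and PAGR1 have 2 rows, and the one with the highest mean was taken. ASXL3 was listed near 0 and not tested, and PECAM1 was not analysed here.

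The 42 genes and the lists were chosen with earlier results of these data known. Values are given for genes that passed, for catalytic, paralog and scaffold genes that did not, and for up to 3 called genes of largest change per further list (mean of 50 or above in a group), plus HCFC1, OGT and KMT2B; BRMS1 and KDM1B were added after their values were seen. Alternatives were other pseudocounts, filters, scalings and tools, array weights, thinned reads, length and GC bins, a replicate block and each library left out.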

Additional observations from a re-analysis of the deposited data

Results flagged for a closer look

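Each group of 8 values was examined for a library far from the other 7, for 142 groups of genes and paralog ratios, and 10 were picked out, 6 of them among the 84 groups of the 42 genes. Chance alone picks about 1 in 20 such groups. ASH2L stood at 1698 normalized counts for HCF-1 siRNA replicate 1, with the others at 2014 to 2261. SAP30 had 321.9 in HCF-1 siRNA replicate 7, with the others at 198.8 to 254.6. RBBP7 had 4526 in control siRNA replicate 6 (others 3246 to 3845), and RCOR1 had 921 in control siRNA replicate 4 (others 1171 to 1374). MCRS1 had 1745 in control siRNA replicate 1 (others 1892 to 1982), and PHF20 had 1983 in control siRNA replicate 2 (others 1567 to 1752). Outside the 42 genes, MTF2 had 1233 in HCF-1 siRNA replicate 8 (others 938.8 to 1074), BRMS1 had 616.1 in the same library (others 773.3 to 895.5), and JARID2 had 1464 in control siRNA replicate 5 (others 1069 to 1224). The log2 ratio of KMT2C over KMT2D was -2.47 in HCF-1 siRNA replicate 6, with the others at -1.91 to -1.43.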

How the results depend on the processing

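Results were recomputed under 29 other settings. Of the 13 calls, 8 held in every one: KMT2D, KDM6A, NCOA6, SIN3B, ARID4B, RCOR1, PHF8 and KAT8. Genes lower among the 42 (1 as reported) numbered 2 with GC bins and 3 with total-count scaling, and 1 to 2 with a library left out. SIN3-HDAC calls numbered 4 with total-count scaling. BAP1-ASXL calls (1 as reported) numbered 3 with GC bins, 0 with length bins and 1 to 2 with a library left out. NSL calls (2 as reported) numbered 1 with edgeR, length bins, no filter, total-count or upper-quartile scaling, and 1 to 2 with a library left out. Total calls among the 42 ranged from 10 with length bins to 17 with GC bins, where 12 were shared.

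Directions turned for genes that had not passed. Total-count scaling gave -0.016 for WDR5, -0.017 for HDAC2 and -0.021 for SAP130. GC bins gave -0.085 for HDAC2, 0.056 for MCRS1 and -0.007 for PHF20. Length bins gave -0.126 for HDAC2, -0.039 for RBBP4, -0.007 for ASXL1, 0.034 for MCRS1 and -0.025 for PHF20. Thinned reads gave -0.002 for HDAC2, and edgeR gave -0.001 for SAP130. With a library left out the values spanned 0 for WDR5 (-0.011 to 0.039), RBBP5 (-0.118 to 0.006), HDAC2 (-0.007 to 0.034), SAP130 (-0.017 to 0.028), KDM1A (-0.023 to 0.007), MCRS1 (-0.055 to 0.020) and PHF20 (-0.000 to 0.083). Apart from what the bins themselves remove, the cause was not tested.

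The labels do not say whether same-numbered cultures were handled together. Correlations of same-numbered libraries ran from -0.074 to 0.098, and 1 library of each group correlated best with its own number. These values show no likeness by number and cannot tell how the cultures were handled. The replicate block gave 5484 genes called and 15 of the 42, 13 of them shared and KMT2A (adjusted p = 0.0428) and SETD1A (0.0466) gained, and -0.610 for HCFC1. Depth left counting errors of 1.23% to 6.19% per library for the 42 genes.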

Other observations

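Complexes that were not chosen as partners of HCF-1 were described in the same way, beside 18.2% higher and 18.3% lower over all genes tested. Each gene was placed in a single list, so HDAC1, HDAC2, RBBP4 and RBBP7, counted under SIN3-HDAC, were not counted again here. Among 8 genes of PRC2, the complex that methylates H3K27, 5 were higher (62.5%) and 1 lower (12.5%), with a median log2 fold change of 0.21. SUZ12, its scaffold, rose by 0.33 ± 0.06 (limma adjusted p = 4.23e-04), and its accessory subunits JARID2 (0.30 ± 0.08) and MTF2 (0.27 ± 0.06) rose too. Among 9 genes of NuRD, a remodelling and deacetylase complex, 2 were higher (22.2%) and 1 lower (11.1%), with a median of 0.03; MTA1 rose by 0.32 ± 0.04, GATAD2B rose by 0.23 ± 0.06, a call lost with centring by exon length (adjusted p = 0.0568), and the methyl-CpG binder MBD2 had -0.25 ± 0.06. Among 18 genes of the BAF remodelling complexes, 5 were higher (27.8%) and 2 lower (11.1%), with a median of 0.08; ARID2 rose by 0.81 ± 0.14 and PBRM1 by 0.32 ± 0.08, while the ATPase gene SMARCA2 had -0.54 ± 0.07. Differences between these complexes and the partners of HCF-1 were not tested.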
